A study of Mus musculus with 12 samples.

Results

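Chemokines and their receptors were followed across mouse stromal preparations of marrow and bone. The members were the 61 genes of the deposited count table, out of 53819, whose symbols are those of CC, CXC and CX3C chemokine ligands (Ccl, Cxcl and Cx3cl genes, Pf4 and Ppbp), of their receptors (Ccr, Cxcr and Cx3cr genes) and of the atypical receptors (Ackr1 to Ackr4 and Ccrl2). Cxcl12 was left out by the rule. There were 39 ligands and 22 receptors, 5 of them atypical. RNA was sequenced from 12 libraries of wild-type cells, 3 in each of 4 groups. BM sorted held stromal cells of whole marrow from hind limbs and pelvis, plated on collagen I, passaged once and then flow sorted for Sca-1+ CD51+ cells lacking F4/80, CD45, CD31 and Ly6C. BM nonsorted held the same kind of culture after the first passage without the sort. BAC depleted held bone-associated cells (BAC), released from hind-limb bone fragments with collagenase I, after magnetic removal of cells carrying F4/80, CD45 or Ly6C. BAC nondepleted held such cells without that removal. The labels give a medium without ascorbic acid under hypoxia for the cultures. The sources used here do not say how long the bone-associated cells were kept in culture, how old the mice were, or whether the libraries of a group came from separate animals.

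Chemokines are small secreted or membrane-bound proteins that steer migrating cells through receptors coupled to inhibitory G proteins. Inflammatory chemokines are made on demand by macrophages and by stromal cells and call in monocytes or neutrophils, whereas homeostatic chemokines are made steadily and position cells within tissues such as the marrow. Atypical receptors bind chemokines without classical G protein signalling and remove them from, or hold them in, the tissue.

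Sequences upstream of 6 ligand genes are shown because neighbouring genes behaved differently in the values below. Cxcl1 and Cxcl2, next to each other on chromosome 5, encode ligands of the same neutrophil receptor. Ccl9, Ccl6 and Ccl3 follow each other on chromosome 11, and Cxcl14 on chromosome 13 was the ligand with the highest level per length in BM sorted. Each run gives the 250 bases before the start of the gene from RefSeq (build GRCm38.p6), 5′ to 3′ on the strand of the gene, at chr5:90890995-90891244 (plus strand) for Cxcl1, chr5:90903649-90903898 (plus) for Cxcl2, chr11:83578637-83578886 (minus) for Ccl9, chr11:83593088-83593337 (minus) for Ccl6, chr11:83649379-83649628 (minus) for Ccl3 and chr13:56296552-56296801 (minus) for Cxcl14. Capitals mark matches to the motifs searched.
Cxcl1: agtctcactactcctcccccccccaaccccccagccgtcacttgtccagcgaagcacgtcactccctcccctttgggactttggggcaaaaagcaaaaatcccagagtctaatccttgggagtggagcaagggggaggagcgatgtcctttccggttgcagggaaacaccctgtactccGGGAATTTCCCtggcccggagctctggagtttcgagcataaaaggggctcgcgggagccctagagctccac
Cxcl2: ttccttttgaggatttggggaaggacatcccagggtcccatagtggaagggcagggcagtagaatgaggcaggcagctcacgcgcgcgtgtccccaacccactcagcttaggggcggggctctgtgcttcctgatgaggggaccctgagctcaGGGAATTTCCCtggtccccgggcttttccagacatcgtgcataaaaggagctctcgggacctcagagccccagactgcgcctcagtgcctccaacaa
Ccl9: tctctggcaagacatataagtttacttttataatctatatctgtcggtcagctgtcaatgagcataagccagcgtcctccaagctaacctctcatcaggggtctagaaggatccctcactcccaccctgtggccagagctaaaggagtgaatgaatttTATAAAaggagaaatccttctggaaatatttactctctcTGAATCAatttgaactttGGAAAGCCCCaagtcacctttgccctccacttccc
Ccl6: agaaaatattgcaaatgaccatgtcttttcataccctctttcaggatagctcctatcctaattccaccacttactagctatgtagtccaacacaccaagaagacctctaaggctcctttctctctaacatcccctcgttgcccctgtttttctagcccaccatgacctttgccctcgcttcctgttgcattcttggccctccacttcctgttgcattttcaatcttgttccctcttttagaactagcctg
Ccl3: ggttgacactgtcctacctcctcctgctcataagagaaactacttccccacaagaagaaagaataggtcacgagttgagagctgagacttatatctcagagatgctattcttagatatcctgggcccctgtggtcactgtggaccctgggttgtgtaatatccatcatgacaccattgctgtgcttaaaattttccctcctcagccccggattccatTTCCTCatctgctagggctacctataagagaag
Cxcl14: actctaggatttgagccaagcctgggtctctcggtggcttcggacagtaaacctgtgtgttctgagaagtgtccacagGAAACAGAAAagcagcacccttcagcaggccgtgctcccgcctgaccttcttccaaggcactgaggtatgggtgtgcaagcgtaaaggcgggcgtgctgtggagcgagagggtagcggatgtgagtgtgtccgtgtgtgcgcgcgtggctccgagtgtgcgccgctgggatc
On both strands the search covered the kappaB consensus, TGANTCA for AP-1, GAGGAA as the core of PU.1 sites, TTGCNNAA for C/EBP factors and the paired IRF motif, and TATAAA was searched on the strand of the gene. The kappaB consensus matched in Cxcl1 (positions -71 to -61, counted back from the start) and in Cxcl2 (-97 to -87), in both as the overlapping GGGAATTTCC and GGAATTTCCC. In Ccl9, which holds a kappaB match (GGAAAGCCCC, -35 to -26), an AP-1 match (TGAATCA, -53 to -47) and TATAAA (-92 to -87) were also found. Ccl3 held the PU.1 core as TTCCTC (-33 to -28), Cxcl14 held the IRF pair as GAAACAGAAA (-172 to -163), and Ccl6 held no match in this window. Of 32851 RefSeq promoters of the same length, 3.90% held the kappaB consensus, 6.75% AP-1, 23.3% the PU.1 core, 9.56% C/EBP, 2.98% the IRF pair and 7.59% TATAAA. Among the 46 members with a promoter entry, 10 held the kappaB consensus, 7 AP-1, 16 the PU.1 core, 7 C/EBP, 3 the IRF pair and 13 TATAAA. These 46 had 55 entries, and a member was counted when any of its entries held the motif. The shares over all promoters are per entry, so the units differ. A match describes letters and not binding.

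Libraries held 27937709 to 32164725 counts, and the members took 0.0358% to 0.0491% of them in BM sorted, 0.0683% to 0.0918% in BM nonsorted, 0.0320% to 0.0428% in BAC depleted and 0.178% to 0.247% in BAC nondepleted. BAC depleted 1 stood apart from the other 11 libraries, with 43406 counts of Xist and 0 of the Y-linked genes Ddx3y, Uty and Kdm5d, where the others had at most 16 counts of Xist, so the calls on depletion, and the values that it moves most, are also given without it. Mitochondrial transcripts made up 2.62%, 2.05% and 1.82% of counts in BAC depleted and 1.08% to 1.36% elsewhere. The low-count filter was passed by 35 members, 12 of 24 CC ligands, 5 of 6 CXC ligands with the ELR motif, 5 of 9 other CXC and CX3C ligands, 10 of 17 receptors and 3 of 5 atypical receptors. Of the 26 that did not pass, 8 had 0 counts in every library and 22, these 8 included, had at most 7 in any. The other 4 were Cxcl3 (highest count 55), Cxcl9 (78, in BAC depleted 1), Ccl24 (18) and Ccl8 (256). With 10 or more counts in all 3 libraries of a group taken as detected, 12 ligands and 3 receptors were detected in BM sorted, 15 and 10 in BM nonsorted, 11 and 2 in BAC depleted, and 21 and 10 in BAC nondepleted. Ackr3, Ackr4 and Ccr7 were the receptors in BM sorted, and Ackr3 and Ackr4 those in BAC depleted.

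**Figure D1:**
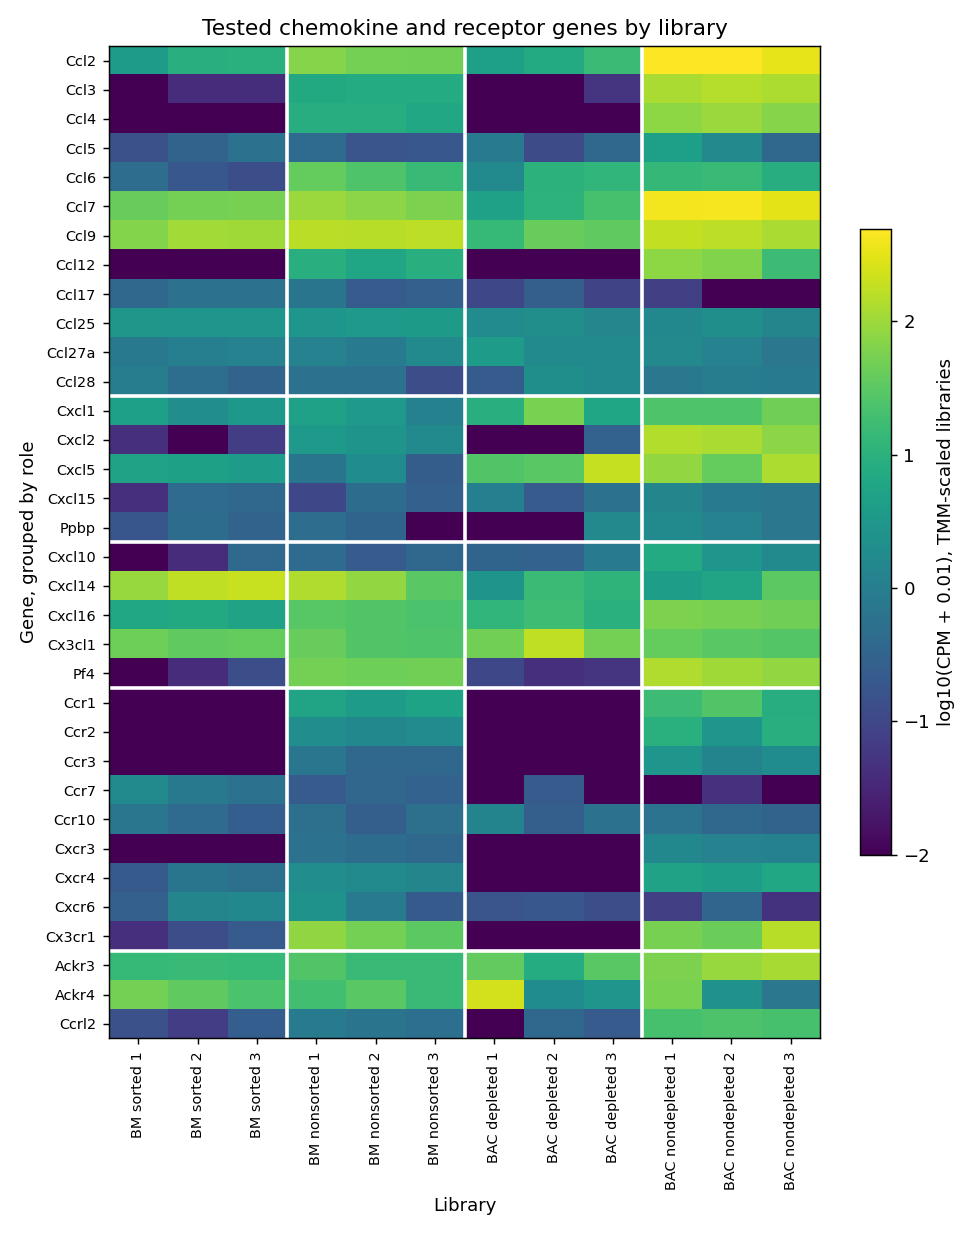
Levels of 34 tested chemokine and receptor genes in the 12 libraries, as log10 of CPM (counts scaled to a common library size with TMM) plus 0.01, with genes (vertical) grouped by role and libraries (horizontal) by group. The receptors Ccr1, Ccr2, Ccr3 and Cxcr3 are at 0 in all libraries of BM sorted and BAC depleted, while Ccl7, Ccl9, Cxcl14 and Cx3cl1 stay bright in BM sorted.

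The purified and unpurified cells of each compartment were compared to see which chemokine transcripts left with the macrophages and other cells that were removed. Levels are given as CPM, counts scaled to a common library size. Ptprc, which encodes CD45, averaged 0.0402 ± 0.0457 CPM in the BM sorted libraries against 95.7 ± 10.4 in those of BM nonsorted, and 0 in BAC depleted and 237 ± 40.0 in BAC nondepleted (SD, n = 3 each). Adgre1, which encodes F4/80, averaged 0.0640 ± 0.0355 CPM after the sort, in BM sorted, against 302 ± 21.6 in BM nonsorted, and 0.0212 ± 0.0367 in BAC depleted and 973 ± 62.1 in BAC nondepleted. The 12 macrophage markers, all called lower in both purifications, summed to 13.2 to 15.3 CPM in BM sorted, 4950 to 5590 in BM nonsorted, 26.0 to 75.4 in BAC depleted (C1qa, C1qb, Fcgr1 and Msr1 at 0) and 12600 to 14200 in BAC nondepleted. Of the 10 stromal markers, all 10 were not called after sorting, and after depletion 1 was called higher and 2 lower. Of all tested genes, 0.166% were called higher and 6.06% lower on sorting, and 17.4% and 19.9% on depletion. In bulk RNA, fewer cells of a type and less RNA per cell cannot be told apart, and p-values measure the spread between these libraries.

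In BM sorted, 0 members were called higher and 15 lower than in BM nonsorted by edgeR's quasi-likelihood test (adjusted p under 0.05), against 0.166% of the 15698 tested genes called higher and 6.06% called lower. Those 15 were 8 ligands (Ccl2, Ccl3, Ccl4, Ccl6, Ccl12, Cxcl2, Cxcl16 and Pf4) and 7 receptors, among them Ccr1, Ccr2, Ccr3, Cxcr3, Cxcr4 and Cx3cr1. At an unadjusted p under 0.05, 2 members were higher (Ccr7 and Cxcl5), and the DESeq2 Wald test called 1 of them, Cxcl5. In BAC depleted, 1 member was called higher (Cx3cl1) and 19 lower than in BAC nondepleted, against 17.4% and 19.9% of the tested genes. Those 19 were 10 ligands (Ccl2, Ccl3, Ccl4, Ccl7, Ccl9, Ccl12, Cxcl2, Cxcl10, Cxcl16 and Pf4) and 9 receptors, among them Ccr1, Ccr2, Ccr3, Cxcr3, Cxcr4, Cx3cr1, Ackr3 and Ccrl2, and there were 18 without BAC depleted 1, where Cxcl10 was not called. Without that library the log2 fold changes on depletion were -5.21 for Ccl2, -4.59 for Ccl7 and -2.07 for Ccl9, all still called. They were -6.25 for Ccrl2 and -2.00 for Cxcl16, also called, and 0.51 for Ccl27a, -0.05 for Cxcl1, 0.38 for Cxcl5 and -0.06 for Cxcl14, not called. The 2 comparisons share no library, and 14 members were called lower in both, 14 of 15 after sorting and 14 of 19 after depletion. The share of all tested genes called lower in both was not counted. A member that passed the filter through 1 group in which it is high had to differ, so these counts describe the members and are no test of them as a group. The libraries did not overlap for 2 members higher and 18 lower in BM sorted, against 12.1% and 16.7% of the tested genes, and for 3 higher and 19 lower in BAC depleted, against 21.4% and 24.9%.

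The monocyte-attracting CC ligands Ccl2, Ccl7, Ccl12 and Ccl8 lie together on chromosome 11, and the first 3 signal through Ccr2, the receptor of inflammatory monocytes. Ccl12 had 0 counts in every library of BM sorted, against 277, 182 and 297 in BM nonsorted, and 0 in every library of BAC depleted, against 2313, 1725 and 434 in BAC nondepleted. It was at least 246-fold lower in BM sorted than in BM nonsorted (edgeR adjusted p = 0.00321) and at least 1494-fold lower in BAC depleted than in BAC nondepleted (edgeR adjusted p = 0.000406), with the bound taken at 3 counts over the group. Ccl2 was reduced but not abolished, with 117, 300 and 303 counts in BM sorted, against 2242, 1625 and 1664 in BM nonsorted, and 141, 208 and 381 in BAC depleted, against 14528, 12916 and 8743 in BAC nondepleted. Neither pair of groups overlapped. The log2 fold change of Ccl2 was -2.93 ± 0.47 on sorting (approximate SE, edgeR adjusted p = 0.00253) and -5.55 ± 0.52 on depletion (edgeR adjusted p = 3.07e-05).

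Ccl7 behaved differently in the 2 compartments. It had 1170, 1685 and 1707 counts in BM sorted, against 3098, 2334 and 2001 in BM nonsorted, and 150, 301 and 499 in BAC depleted, against 11924, 11395 and 8310 in BAC nondepleted. The libraries of both pairs did not overlap, yet the difference on sorting did not pass (log2 fold change -0.68 ± 0.41, edgeR adjusted p = 0.519), while that on depletion did (-4.97 ± 0.48, edgeR adjusted p = 3.71e-05). Mean levels of Ccl7 were 47.3 ± 7.05 CPM for BM sorted, against 76.0 ± 18.4 for BM nonsorted, and 12.1 ± 8.10 in BAC depleted and 377 ± 52.7 in BAC nondepleted (SD, n = 3 each). Ccl8, which did not pass the filter, had 0 counts in BAC depleted, against 256, 79 and 2 in BAC nondepleted, and at most 2 in any BM library. Ccl11, an eosinophil attractant of the same cluster, had at most 6 counts, in BAC depleted 1.

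Ccl3 and Ccl4, which activated macrophages make, were nearly absent from purified cells. Ccl3 had 0, 1 and 1 counts in BM sorted, against 231, 238 and 262 in BM nonsorted, and 0, 0 and 1 in BAC depleted, against 3668, 4065 and 3418 in BAC nondepleted. Ccl4 had 0 counts in all 6 purified libraries, against 272, 259 and 214 in BM nonsorted and 2295, 2626 and 1769 in BAC nondepleted. No purified library reached the level of an unpurified one for either gene. Ccl3 was lower by a ratio of 357 on sorting (95% counting interval 98.4 to 2952, edgeR adjusted p = 2.02e-07) and by 11180 on depletion (2005 to 441500, edgeR adjusted p = 1.11e-08). Ccl4 was at least 243-fold lower on sorting (edgeR adjusted p = 1.12e-05) and at least 2235-fold lower on depletion (edgeR adjusted p = 1.52e-06). Ccl5, which attracts T cells and monocytes, had 3 to 134 counts per library and was not called in either purification.

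Ccl9 and Ccl6 are rodent chemokines that signal through Ccr1, and their genes neighbour each other between Ccl5 and Ccl3. Ccl9 stayed abundant after sorting, with 1929, 3636 and 3438 counts in BM sorted, against 5129, 4870 and 5740 in BM nonsorted, and 427, 1131 and 837 in BAC depleted, against 5414, 4589 and 3195 in BAC nondepleted. Its libraries did not overlap in either pair, but only the difference on depletion passed (-2.41 ± 0.36, edgeR adjusted p = 0.000692), with -0.78 ± 0.35 on sorting (edgeR adjusted p = 0.322). Ccl6 showed the reverse, with 14, 6 and 4 counts in BM sorted, against 1252, 781 and 523 in BM nonsorted, and 53, 288 and 297 in BAC depleted, against 397, 418 and 215 in BAC nondepleted. The BM groups were far apart, while BAC depleted 2 and 3 lay within the range of BAC nondepleted. The log2 fold change of Ccl6 was -6.67 ± 0.85 on sorting (edgeR adjusted p = 0.000513) and -0.60 ± 0.63 on depletion (edgeR adjusted p = 0.472), and -0.12 on depletion without BAC depleted 1 (edgeR adjusted p = 0.858).

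The remaining tested CC ligands were low and none was called on sorting or depletion. Ccl25, a thymic and gut homing signal read by Ccr9, had 36 to 122 counts per library with differences of -0.15 ± 0.22 on sorting and 0.08 ± 0.23 on depletion (log2, edgeR adjusted p = 0.864 and 0.795). Ccl27a, a skin chemokine read by Ccr10, had 116, 48 and 40 counts in BAC depleted, against 48, 33 and 19 in BAC nondepleted, and its difference on depletion (0.99 ± 0.43, edgeR adjusted p = 0.0950) did not pass. Ccl28, a mucosal ligand of Ccr10, had 4 to 60 counts, and Ccl17, a Ccr4 ligand of dendritic cells, had 0 to 21. Exons of Ccl25 overlap those of Elavl1, and exons of Ccl27a those of Il11ra1, in the GENCODE M21 annotation, so reads of these pairs may have been split by the counting.

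**Figure D2:**
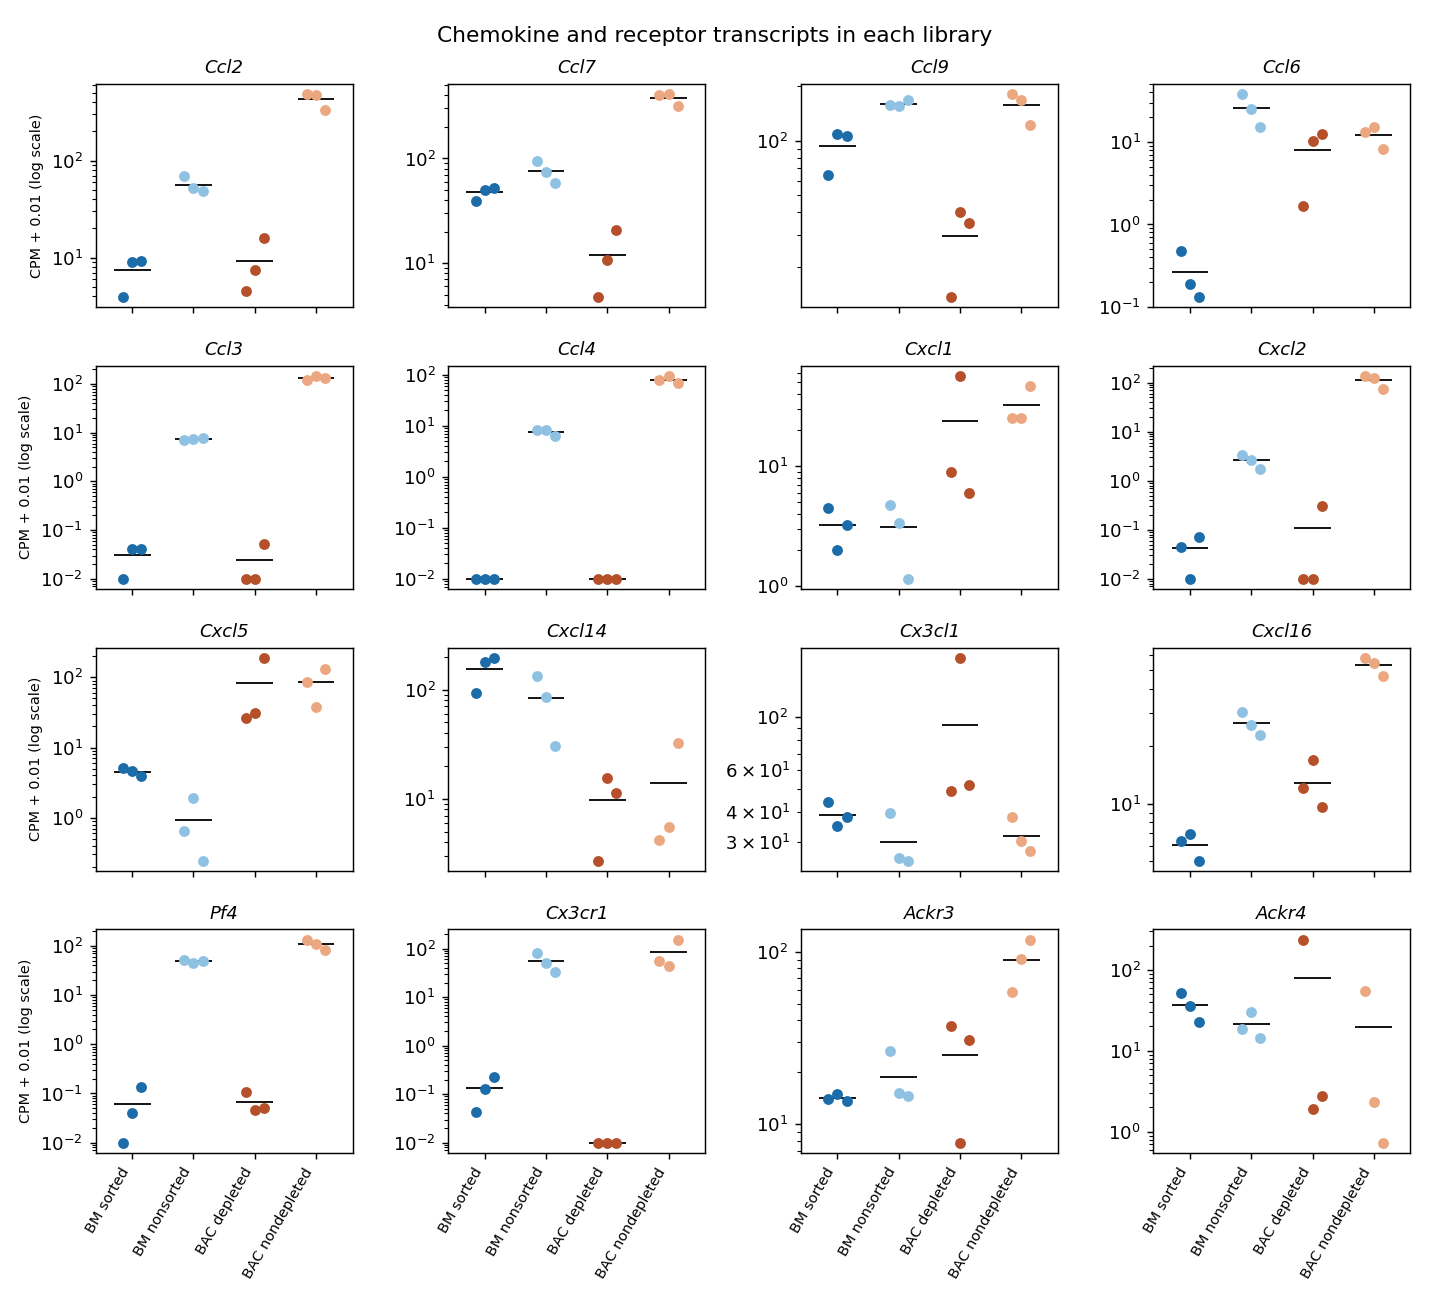
CPM plus 0.01 (vertical, log scale) of 16 chemokine and receptor genes in each library (points) of the 4 groups, with the group mean as a line. Ccl3, Ccl4, Pf4 and Cx3cr1 drop in both purified groups, Ccl7 and Ccl9 were called lower in BAC depleted and not in BM sorted, Ccl6 in BM sorted and not in BAC depleted, and the 3 libraries of BAC depleted are far apart for Ackr4, Cxcl1 and Cxcl5.

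CXC ligands with the ELR motif attract neutrophils through Cxcr2, and their genes cluster on chromosome 5. Cxcl2, made by macrophages among others, had 1, 0 and 2 counts in BM sorted, against 111, 85 and 59 in BM nonsorted, and 0, 0 and 7 in BAC depleted, against 4135, 3367 and 1991 in BAC nondepleted. It was nearly lost in both compartments. The ratio was 83.0 lower in BM sorted than in BM nonsorted (95% counting interval 28.1 to 405, edgeR adjusted p = 0.001), and the log2 fold change on depletion was -10.30 ± 0.77 (edgeR adjusted p = 5.61e-06). Its neighbour Cxcl1, whose upstream sequence above holds the same kappaB letters, was not called in either, with 132, 66 and 105 counts in BM sorted, against 155, 105 and 39 in BM nonsorted, and 279, 1597 and 143 in BAC depleted, against 750, 697 and 1214 in BAC nondepleted. Both pairs overlapped, and BAC depleted 2 held the highest count of all libraries. In bone the overlap came from BAC depleted 2 alone, and without that library Cxcl1 was called on depletion. Log2 fold changes of Cxcl1 were 0.06 ± 0.82 on sorting (edgeR adjusted p = 0.991) and -0.44 ± 0.78 on depletion (edgeR adjusted p = 0.681).

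Cxcl5, an ELR ligand known from epithelial and stromal cells, had 152, 152 and 127 counts in BM sorted, against 21, 60 and 8 in BM nonsorted, and 816, 880 and 4567 in BAC depleted, against 2547, 1056 and 3434 in BAC nondepleted. It was higher in 3 of 3 libraries of BM sorted than in any of BM nonsorted, and the bone groups overlapped only through BAC depleted 3. The difference on sorting (2.29 ± 0.93, edgeR adjusted p = 0.262) did not pass, but passed in the DESeq2 Wald test (adjusted p = 0.0486), and that on depletion was -0.04 ± 0.79 (edgeR adjusted p = 0.972). Ppbp, a platelet chemokine, and Cxcl15, a lung chemokine of the mouse, had at most 50 and 40 counts and were not called. Cxcl3 did not pass the filter, with 55 counts in BAC depleted 3 and at most 26 elsewhere. BAC depleted 3 thus held the highest count of Cxcl5 and of Cxcl3 among all libraries.

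Pf4, a chemokine stored in platelets and also made by macrophages, fell with the macrophage markers. It had 0, 1 and 4 counts in BM sorted, against 1686, 1433 and 1662 in BM nonsorted, and 3, 1 and 1 in BAC depleted, against 3981, 2936 and 2180 in BAC nondepleted. The groups were far apart in both compartments, with log2 fold changes of -9.76 ± 0.45 on sorting (edgeR adjusted p = 2.56e-07) and -10.73 ± 0.46 on depletion (edgeR adjusted p = 9.35e-08). The 6 markers of megakaryocytes and platelets, which do not include Pf4, summed to 3.55 to 5.20 CPM for BM sorted, against 2.95 to 4.16 for BM nonsorted, and to 5.73 to 9.98 in BAC depleted and 5.68 to 8.49 in BAC nondepleted, and both members that were tested were not called in either purification.

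Cxcl16, a membrane-bound ligand of Cxcr6 that also acts as a scavenger receptor, fell by a like amount in both compartments. It had 190, 231 and 164 counts in BM sorted, against 980, 816 and 781 in BM nonsorted, and 380, 479 and 230 in BAC depleted, against 1730, 1490 and 1223 in BAC nondepleted. Neither pair overlapped, and the log2 fold changes were -2.11 ± 0.21 on sorting (edgeR adjusted p = 8.15e-05) and -2.04 ± 0.21 on depletion (edgeR adjusted p = 5.36e-05). The difference of these effects was -0.07 ± 0.29 (edgeR adjusted p = 0.918). Exons of Cxcl16 overlap those of Zmynd15.

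Cx3cl1, the membrane-bound ligand of Cx3cr1, was the 1 member called higher on depletion. It had 1313, 1165 and 1247 counts in BM sorted, against 1293, 808 and 858 in BM nonsorted, and 1535, 4977 and 1252 in BAC depleted, against 1138, 833 and 720 in BAC nondepleted. The bone groups did not overlap, and BAC depleted 2 stood well above the other libraries. Its log2 fold change was 1.53 ± 0.44 on depletion (edgeR adjusted p = 0.0220; 1.84 and adjusted p = 0.00930 without BAC depleted 1) and 0.37 ± 0.44 on sorting (edgeR adjusted p = 0.809). Without BAC depleted 2 it was 0.66 (edgeR adjusted p = 0.0369). The rise was not called without BAC nondepleted 2 (edgeR adjusted p = 0.0669) or without BAC nondepleted 3 (adjusted p = 0.0689).

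Cxcl14, a homeostatic chemokine made by epithelial and mesenchymal cells, was not called in either purification. It had 2748, 5908 and 6385 counts in BM sorted, against 4327, 2714 and 1032 in BM nonsorted, and 85, 437 and 273 in BAC depleted, against 126, 152 and 849 in BAC nondepleted. The groups overlapped in both compartments, and all libraries of BM sorted were above all of BAC depleted. Log2 fold changes were 0.90 ± 0.84 on sorting (edgeR adjusted p = 0.737) and -0.51 ± 0.86 on depletion (edgeR adjusted p = 0.664). Cxcl10, an interferon-induced Cxcr3 ligand, had 10, 8 and 20 counts in BAC depleted, against 223, 78 and 46 in BAC nondepleted, and at most 14 in the marrow libraries. It was lower on depletion (-3.08 ± 0.93, edgeR adjusted p = 0.0258), a call lost without BAC depleted 1, BAC depleted 2 or BAC nondepleted 1 (edgeR adjusted p = 0.0697, 0.0657 and 0.0940). Exons of Cxcl10 overlap those of Art3. Cxcl9, another interferon-induced Cxcr3 ligand, had 78 counts in BAC depleted 1, 10 in BAC depleted 2 and at most 5 in the other 10 libraries.

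Among the 10 signalling receptors tested, 7 were called lower in both purifications. Of all tested genes, 6.06% were called lower on sorting and 19.9% on depletion, and the share in both was not counted. Ccr1, a receptor of monocytes and neutrophils, and Ccr2 had 0 counts in every purified library. Ccr1 had 178, 125 and 178 counts in BM nonsorted and 481, 717 and 215 in BAC nondepleted, and was at least 157-fold lower in BM sorted (edgeR adjusted p = 0.000691) and at least 472-fold lower in BAC depleted (adjusted p = 0.000149). Ccr2 had 64, 49 and 62 counts in BM nonsorted and 280, 80 and 240 in BAC nondepleted, and was at least 57.0-fold lower in BM sorted (edgeR adjusted p = 0.00196) and at least 200-fold lower in BAC depleted (adjusted p = 0.000305). Ccr3, known from eosinophils, and Cxcr3, known from T cells, were also at 0 after purification, from at most 86 and 45 counts before. Ccr3 was at least 15-fold lower in BM sorted and at least 57.1-fold lower in BAC depleted, and Cxcr3 at least 14.6-fold and at least 36.1-fold lower.

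Cx3cr1, the fractalkine receptor of monocytes and macrophages, had 1, 4 and 7 counts in BM sorted, against 2697, 1596 and 1119 in BM nonsorted, and 0 in every library of BAC depleted, against 1616, 1203 and 4007 in BAC nondepleted. Its log2 fold change was -8.75 ± 0.83 on sorting (edgeR adjusted p = 0.000239), and it was at least 2280-fold lower on depletion (edgeR adjusted p = 6.71e-05). Its ligand Cx3cl1 stood at 39.1 ± 4.65 CPM in BM sorted and 92.3 ± 72.5 CPM in BAC depleted, so this ligand and its receptor parted on purification. Cxcr4, the receptor of Cxcl12 on blood-forming cells and macrophages, was low throughout, with 6, 22 and 17 counts in BM sorted, against 64, 54 and 47 in BM nonsorted, and 0 in every library of BAC depleted, against 152, 110 and 161 in BAC nondepleted. No pair overlapped. Cxcr4 fell on sorting by 1.86 ± 0.42 on the log2 scale (edgeR adjusted p = 0.0354), a call lost with any 1 library of either marrow group left out except BM sorted 2 (adjusted p up to 0.125), and was at least 141-fold lower on depletion (edgeR adjusted p = 2.51e-05).

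A few receptors were low and not called on purification. Cxcr6, which binds Cxcl16 and is known from T and NK cells, had 8, 46 and 49 counts in BM sorted, against 78, 27 and 7 in BM nonsorted, and its gene lies inside Fyco1. Ccr7, the lymph node homing receptor, had 51, 26 and 19 counts in BM sorted, against 7, 11 and 10 in BM nonsorted, without overlap, and its difference (1.82 ± 0.80, edgeR adjusted p = 0.313) did not pass. Ccr10 had 7 to 41 counts and overlapped between all groups. Cxcr2, the receptor of the ELR ligands, had 0 counts in every library, and Cxcr1, Cxcr5, Ccr4, Ccr6, Ccr8 and Ccr9 had at most 7.

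Ackr3, an atypical receptor that removes Cxcl12, was detected in all 4 groups. It had 416, 500 and 444 counts in BM sorted, against 862, 478 and 498 in BM nonsorted, and 1166, 221 and 741 in BAC depleted, against 1734, 2513 and 3082 in BAC nondepleted. The marrow groups overlapped and the bone groups did not. Log2 fold changes were -0.40 ± 0.48 on sorting (edgeR adjusted p = 0.814) and -1.82 ± 0.49 on depletion (edgeR adjusted p = 0.0159), and the call on depletion was lost without BAC nondepleted 3 (adjusted p = 0.0507) and in a fit of only the groups compared (adjusted p = 0.0786). Without BAC depleted 1 the fall on depletion was -2.20 (edgeR adjusted p = 0.0140).

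Ackr4, which clears Ccl19, Ccl21 and Ccl25, was uneven within the bone groups. It had 1546, 1186 and 734 counts in BM sorted, against 613, 962 and 486 in BM nonsorted, and 7429, 54 and 66 in BAC depleted, against 1654, 64 and 19 in BAC nondepleted. In each bone group library 1 was far above the others, and Ackr4 was called in no comparison. The BAC depleted library with 7429 counts is the one that stands apart by Xist, and without it the log2 fold change on depletion was -3.07 (edgeR adjusted p = 0.151) where it was 2.04 with it (adjusted p = 0.378). Ccrl2, which binds chemerin and presents it to other cells, had 4, 2 and 8 counts in BM sorted, against 26, 20 and 17 in BM nonsorted, and 0, 10 and 5 in BAC depleted, against 623, 666 and 542 in BAC nondepleted. It fell on depletion (-6.87 ± 0.72, edgeR adjusted p = 6.55e-05), and its difference on sorting (-2.11 ± 0.70, adjusted p = 0.146) did not pass. Exons of Ackr4 overlap those of Acad11.

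The share of a transcript left after purification was used to describe its source, as the mean CPM of the purified group in percent of the unpurified one. For the macrophage markers this share was 0.00704% to 14.4% (median 0.108%) in marrow and 0% to 13.7% (median 0.0129%) in bone, with Mertk highest in both. For the stromal markers it was 29.4% to 396% in marrow (8 genes) and 25.2% to 240% in bone (10 genes). A share needed a mean of at least 1 CPM in the unpurified group, which 22 members reached in both compartments. Cxcl5 did not, at 0.929 CPM in BM nonsorted. It stood at 4.52 CPM in BM sorted and kept 97.1% in bone. That bone share rested on BAC depleted 3, at 190 CPM. BAC depleted 1 and 2 held 25.9 and 31.1 CPM of Cxcl5, below all libraries of BAC nondepleted (38.4 to 131 CPM). Of the 22 members, 9 were left at under 10% in both, among them Pf4, Cxcl2, Ccl3, Ccl4, Ccl12, Ccr1, Ccr2 and Cx3cr1. The highest share of the 9 was 1.21%, for Cxcl2 in marrow. These 5 ligands and 4 receptors had shares under those of the highest macrophage marker, which the cut at 10% fixed in advance. Ccl4, Ccl12, Ccr1 and Ccr2 were at 0% in both compartments, in marrow below all macrophage markers. In contrast, 6 were left at 50% or more in both. They were Ccl25 (90.3% in marrow and 106% in bone), Ccl27a (81.0% and 200%), Cxcl1 (104% and 73.7%), Cx3cl1 (129% and 289%), Cxcl14 (186% and 70.1%) and Ackr4 (173% and 411%). Without BAC depleted 1 the bone share of Ackr4 was 11.9%, which takes it out of this group, and the other 5 stayed in it, with bone shares of 104% for Ccl25, 143% for Ccl27a, 96.8% for Cxcl1, 357% for Cx3cl1 and 95.6% for Cxcl14. The bone share of Cxcl1 rested on BAC depleted 2, at 56.5 CPM. BAC depleted 1 and 3 held 8.87 and 5.96 CPM of Cxcl1, below all libraries of BAC nondepleted (25.2 to 46.3 CPM).

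The other 7 members lay in between or differed by compartment. Ccl6 kept 0.982% in marrow and 66.0% in bone, and Cxcr4 27.3% and 0%. Ccl7 kept 62.3% in marrow and 3.20% in bone, Ccl9 58.1% and 18.8%, and Ackr3 75.6% and 28.4%. Ccl2 kept 13.1% and 2.15%, and in marrow Mertk (14.4%) was the 1 macrophage marker above it, with Cd14 next at 4.33%. The mean levels of Ccl2 that were left were 7.40 CPM in BM sorted and 9.24 CPM in BAC depleted. Cxcl16 kept 23.2% and 24.3%, above the highest macrophage marker in both.

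**Figure D3:**
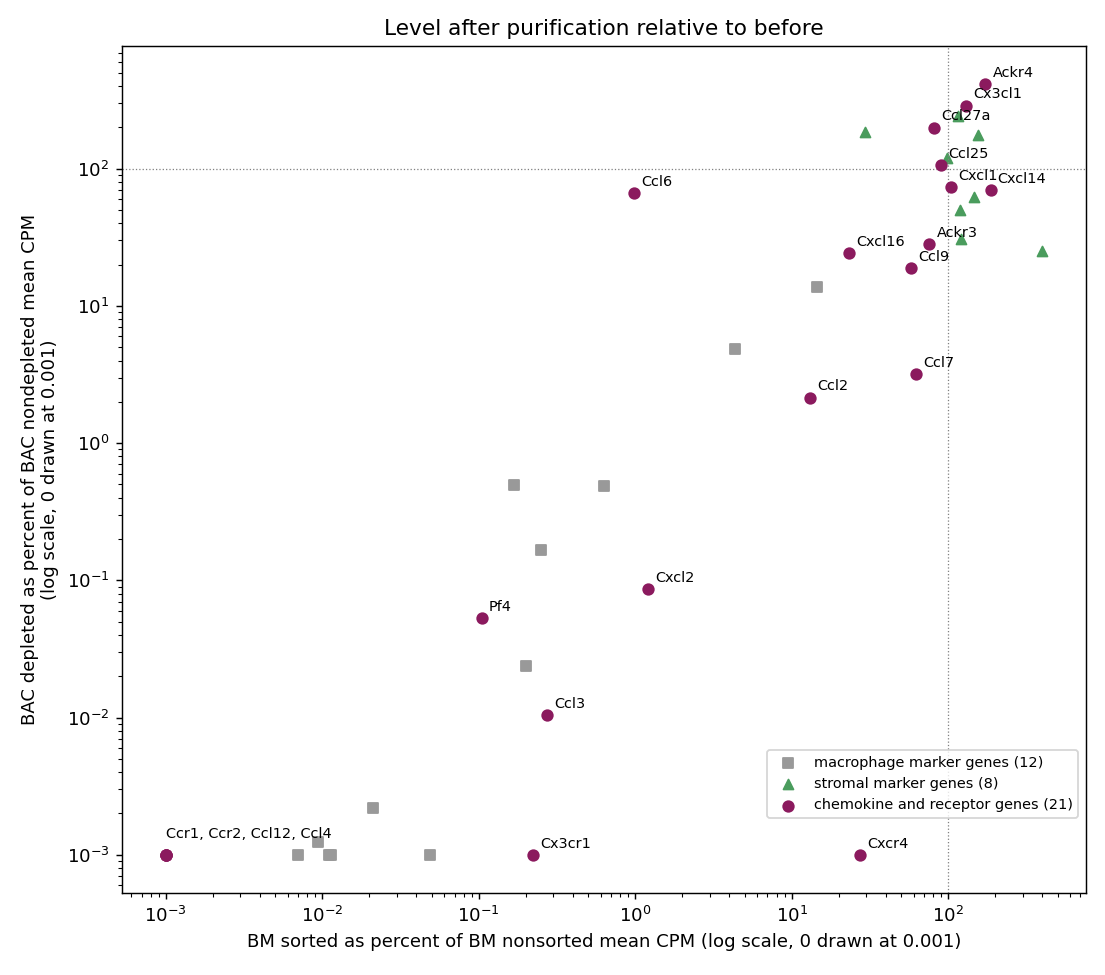
Mean CPM after purification in percent of that before, in marrow (horizontal) and bone (vertical), both on log axes with 0 drawn at 0.001, for 21 chemokine and receptor genes, 12 macrophage markers and 8 stromal markers. The lost genes lie at the lower left, among the macrophage markers or, where at 0 in both compartments, in the corner. The 6 kept genes lie at the upper right near the stromal markers, and Ccl6, Cxcr4 and Ccl7 off the diagonal.

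Whether a gene changed differently in the 2 purifications was tested as the sorting effect minus the depletion effect. It was called higher for 4 members and lower for 1, against 5.08% and 2.99% of the tested genes. Ccl7 differed by 4.29 ± 0.60 on the log2 scale (edgeR adjusted p = 0.00428) and Ccl6 by -6.07 ± 1.03 (adjusted p = 0.00929), and both calls held in 17 of 17 alternative settings. Cxcr4 differed by a fitted 8.40 (edgeR adjusted p = 0.00336), a size that depends on the prior count because BAC depleted was at 0. Ccrl2 differed by 4.77 ± 1.02 (edgeR adjusted p = 0.0224), a call lost without BM sorted 3, BM nonsorted 2 or BAC nondepleted 2 (adjusted p = 0.106, 0.0565 and 0.0532). Ccl2 differed by 2.62 ± 0.63 (edgeR adjusted p = 0.0334), a call lost in 10 of 17 alternatives. The 4 higher calls became 2 without BM sorted 3, BM nonsorted 2 or BAC nondepleted 2, and 8 without BAC depleted 3. They became 5 without BAC depleted 1, where Ccl9 joined them. Between BM sorted and BAC depleted, Ccl2 (log2 fold change -0.31 ± 0.44, edgeR adjusted p = 0.588) and Ccrl2 (-0.31 ± 0.80, adjusted p = 0.774) were not called. Both were called lower in BM nonsorted than in BAC nondepleted (-2.93 ± 0.46 and -5.08 ± 0.64), so for these 2 genes only the unpurified levels were called different. Ccl7 (-2.31 ± 0.43) and Cxcr4 (-1.59 ± 0.40, a call held in 8 of 12 alternatives) were also called lower in BM nonsorted. Both of these were called higher in BM sorted than in BAC depleted. Ccl6 was not called between the unpurified groups (1.10 ± 0.63).

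**Figure D4:**
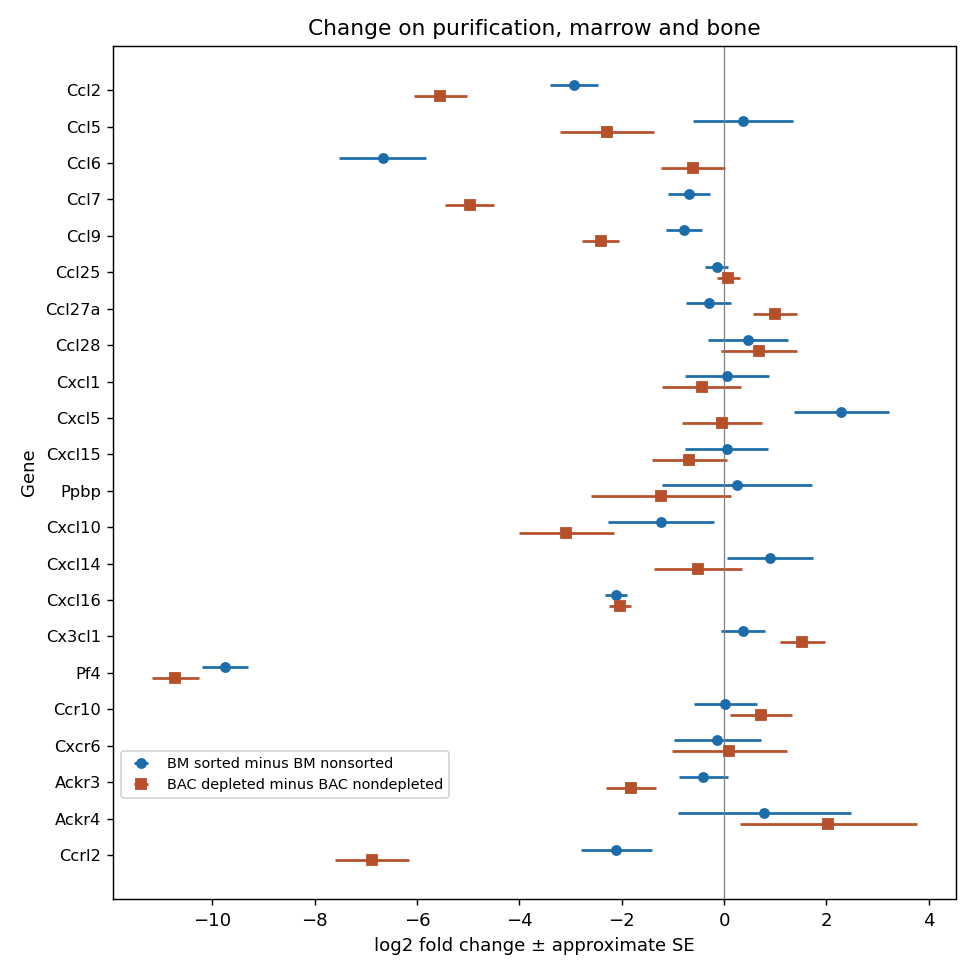
Log2 fold change with approximate SE (horizontal) on sorting (circles) and on depletion (squares) for the 22 tested genes (vertical) whose counts allow a fitted value in both. Ccl7, Ccl2 and Ccrl2 fell further in bone, Ccl6 fell further in marrow, and Cxcl16 and Pf4 changed by a similar amount in both.

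Purified marrow stroma and purified bone stroma were then compared, a contrast in which compartment, dissociation and purification method change together and cannot be told apart. In BM sorted, 7 members were called higher and 6 lower than in BAC depleted, against 22.9% and 24.6% of the tested genes. Without BAC depleted 1 the counts were 6 and 6, with Ccl27a and Cxcr6 lost and Ccl28 added. The 6 lower calls became 3 without BM sorted 2. Libraries did not overlap for 9 members higher and 6 lower, against 26.4% of genes in each direction. The higher members were the ligands Cxcl14 (3.98 ± 0.95, edgeR adjusted p = 0.00658), Ccl7 (1.98 ± 0.43, adjusted p = 0.00391), Ccl9 (1.66 ± 0.36, adjusted p = 0.00382) and Ccl25 (0.72 ± 0.23, adjusted p = 0.0232) and the receptors Cxcr4, Ccr7 and Cxcr6. Cxcr4 was at least 13.1-fold higher in BM sorted than in BAC depleted (edgeR adjusted p = 0.000458).

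The lower members were all ligands, namely Ccl6 (-4.97 ± 0.81, edgeR adjusted p = 0.000892), Cxcl5 (-4.19 ± 0.91, adjusted p = 0.00407), Cxcl1 (-2.89 ± 0.85, adjusted p = 0.0177), Cx3cl1 (-1.24 ± 0.44, adjusted p = 0.0404), Ccl27a (-1.22 ± 0.43, adjusted p = 0.0398) and Cxcl16 (-1.08 ± 0.21, adjusted p = 0.00221). The calls of Ccl6, Cxcl5 and Cxcl16 held in 12 of 12 alternatives, as did those of Cxcl14, Ccl7, Ccl9, Cxcr4 and Ccr7. Those of Cxcl1 and Ccl25 held in 6 of 12, and those of Cx3cl1, Ccl27a and Cxcr6 in 5 of 12. Without BAC depleted 2 the difference of Cxcl1 was -1.21 and that of Cx3cl1 -0.37 (edgeR adjusted p = 0.0912 and 0.182), and without BAC depleted 3 that of Cxcl5 was -2.67 (adjusted p = 0.00765). The summed macrophage markers were lower in BM sorted (13.2 to 15.3 CPM) than in BAC depleted (26.0 to 75.4), but single markers differed in direction. Lyz2 had 118, 114 and 138 counts in BM sorted, against 497, 1713 and 171 in BAC depleted. Mrc1 had 47, 37 and 47, against 10, 11 and 20. Of the 12 markers, 1 was called higher in BM sorted, 4 were called lower and 7 were not called (median log2 fold change 1.2). The part of these differences in the levels of Ccl6 and Cxcl16 was not tested.

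The unpurified cells of the compartments were also compared. In BM nonsorted, 4 members were called higher and 20 lower than in BAC nondepleted, against 14.9% and 16.8% of the tested genes, and the summed macrophage markers were lower too, at 4950 to 5590 CPM in BM nonsorted and 12600 to 14200 in BAC nondepleted. The libraries did not overlap for 4 members higher and 22 lower, against 27.3% and 28.7% of genes. Among them were Cxcl5 (-6.52 ± 1.04, edgeR adjusted p = 0.00199), Cxcl2 (-5.42 ± 0.56, adjusted p = 0.000338) and Ccrl2 (-5.08 ± 0.64, adjusted p = 0.000676). Ccl3 (-4.17 ± 0.22, edgeR adjusted p = 1.87e-05), Ccl4 (-3.39 ± 0.20, adjusted p = 0.000302), Ccl2 (-2.93 ± 0.46, adjusted p = 0.00188) and Ccl7 (-2.31 ± 0.43, adjusted p = 0.00383) were lower as well, while Ccl9 was not called (0.03 ± 0.34, adjusted p = 0.956). Pf4 was lower by less than those ligands (-1.15 ± 0.26, edgeR adjusted p = 0.0101). The higher members were Ccl25 (0.95 ± 0.23, edgeR adjusted p = 0.0112), Cxcr6 (2.97 ± 1.01, adjusted p = 0.0463), Ccl17 (ratio 15.8, 95% counting interval 4.06 to 135, adjusted p = 0.0105) and Ccr7 (ratio 23.8, 3.94 to 975, adjusted p = 0.0338). The call of Cxcr6 held in 5 of 12 alternatives, with log2 fold changes of 1.85 to 4.33 and adjusted p up to 0.195, and those of Ccr7 and Ccr1 held in 6 of 12. The 20 lower calls became 10 without BM nonsorted 2, 13 without BM nonsorted 3 and 13 without BAC nondepleted 1, and the 4 higher became 2 without BM nonsorted 1, BM nonsorted 2 or BAC nondepleted 1.

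Per kilobase of exon (union of exons in GENCODE M21), which allows genes to be ranked, the 3 highest members in BM sorted were Cxcl14 (84.8 ± 30.2 CPM per kb), Ccl7 (59.1 ± 8.80) and Ccl9 (30.5 ± 8.05, SD, n = 3). Cxcl14 and Ccl7 lay within their spread of each other, and both lay above Cx3cl1 (9.94 ± 1.18), the next in order after Ccl9. In BM nonsorted Ccl7 (94.9 ± 23.0), Pf4 (67.5 ± 4.37), Ccl9 (52.6 ± 2.27), Ccl2 (49.6 ± 9.62) and Cxcl14 (45.5 ± 28.2) led, and the last 3 were not separated by their spread. In BAC depleted the order could not be resolved, with Cxcl5 at 44.3 ± 50.1, Cx3cl1 at 23.5 ± 18.4, Ccl7 at 15.1 ± 10.1, Ackr4 at 14.9 ± 25.1 and Cxcl1 at 12.7 ± 15.1 CPM per kb. In BAC nondepleted Ccl7 (471 ± 65.8) and Ccl2 (378 ± 74.1) stood above Ccl3 (175 ± 16.5), Pf4 (149.5 ± 35.1) and Ccl4 (121 ± 21.6).

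The make-up of the ligand pool, as shares of the summed ligand CPM per kb, was compared between libraries. Cxcl14 made up 34.7%, 43.7% and 45.7% of it in BM sorted, against 15.7%, 12.8% and 5.21% in BM nonsorted, and 2.61%, 5.76% and 3.26% in BAC depleted, against 0.129%, 0.175% and 1.34% in BAC nondepleted. Ccl7 had a higher share in each library of BM sorted than in any of BM nonsorted, with 33.7%, 28.5% and 27.9% in BM sorted, against 25.7%, 25.2% and 23.0% in BM nonsorted, and had 10.5%, 9.04% and 13.6% in BAC depleted, against 27.9%, 29.9% and 29.8% in BAC nondepleted. In BAC depleted the leading ligand was Cxcl5 in libraries 1 and 3 and Cx3cl1 in library 2. Cxcl5 held 24.5%, 11.4% and 53.4% of the pool in its libraries 1, 2 and 3, Cx3cl1 held 21.9%, 30.5% and 6.95%, and Cxcl1 held 8.34%, 20.5% and 1.66%.

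**Figure D5:**
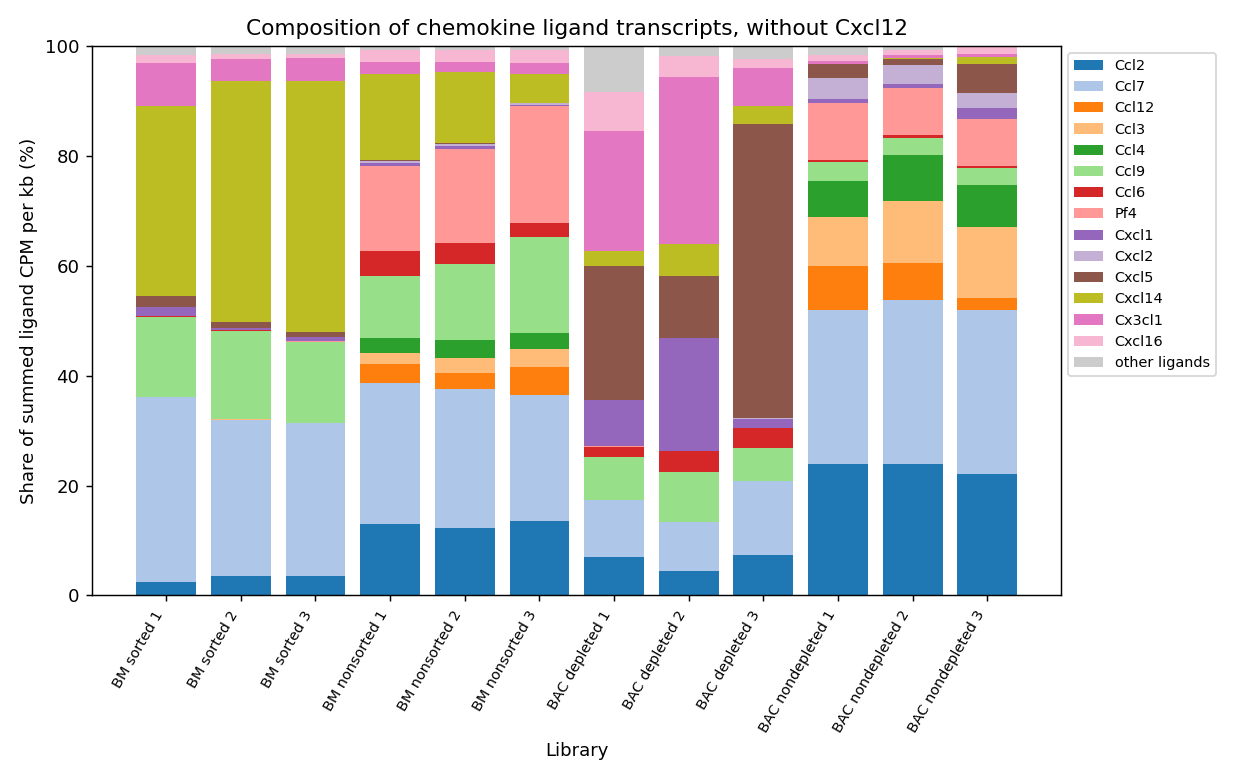
Share of each ligand in the summed CPM per kb of all ligands with a gene model (vertical, percent) in the 12 libraries (horizontal), with 14 ligands named and the rest in grey. Cxcl14, Ccl7 and Ccl9 make up most of the bars of BM sorted, Ccl2 and Ccl7 about the lower part of those of BAC nondepleted, and the 3 bars of BAC depleted differ from each other.

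Genes that work downstream of chemokine receptors, a list of 35 that were all tested, were often lower after purification. Of these, 22 were called lower and 13 were not called in BM sorted than in BM nonsorted, with a median log2 fold change of -2.03 against 0 over all tested genes, and 1 was called higher and 26 lower in BAC depleted than in BAC nondepleted, with a median of -3.41 against 0.05. The shares of all tested genes called lower were 6.06% on sorting and 19.9% on depletion. Values for this list and those below include BAC depleted 1. Rac2, the haematopoietic Rac GTPase, had 0, 1 and 1 counts in BM sorted, against 1239, 1021 and 1118 in BM nonsorted, and was lower by a ratio of 1649 on sorting (95% counting interval 456 to 13620, edgeR adjusted p = 5.56e-08) and of 4984 on depletion (894 to 196900, adjusted p = 2.42e-08). Dock2, the exchange factor that activates Rac in leukocytes, was lower by a ratio of 6129 on sorting (1100 to 242100, edgeR adjusted p = 1.31e-07) and of 5484 on depletion (1518 to 45290, adjusted p = 5.13e-08). Gnai1, an inhibitory G protein subunit, was the 1 called higher, with 272, 1141 and 356 counts in BAC depleted, against 73, 65 and 72 in BAC nondepleted (3.08 ± 0.61, edgeR adjusted p = 0.00335). Between the purified groups 9 of the 35 were called higher and 4 lower in BM sorted than in BAC depleted, against 22.9% and 24.6% of all tested genes, so the share called higher was near that of all genes, with Rgs19 (1.41 ± 0.11) and Grk6 (0.86 ± 0.11), which both dampen receptor signals, among the higher, and Grk3 (-5.23 ± 0.93) and Dock8 (-2.89 ± 0.55) among the lower.

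Genes of NF-kappaB signalling and its feedback, through which inflammatory chemokines are induced, were also followed. Of 18 tested, 17 were not called on sorting and 1 was lower, namely Ikbkb, a kinase subunit (-0.52 ± 0.09, edgeR adjusted p = 0.00338), and on depletion 8 were lower and 10 were not called, against 6.06% of all tested genes called lower on sorting and 19.9% on depletion. Tnfaip3, which encodes the feedback inhibitor A20, had 1133, 1614 and 1713 counts in BM sorted, against 1222, 1200 and 2022 in BM nonsorted, and 174, 84 and 50 in BAC depleted, against 1345, 876 and 838 in BAC nondepleted. Its marrow groups overlapped, and on depletion it fell by 3.35 ± 0.35 on the log2 scale (edgeR adjusted p = 6.71e-05), and so did Bcl3, an atypical IkappaB protein (-1.57 ± 0.24, adjusted p = 0.000751). Between the purified groups 2 of 18 were called higher and 8 lower in BM sorted than in BAC depleted, against 22.9% and 24.6% of all tested genes. Tnfaip3 (3.70 ± 0.36, edgeR adjusted p = 6.37e-05) and Chuk (0.75 ± 0.12, adjusted p = 0.000814) were the higher ones, and Zfp36, which destabilises inflammatory messages (-4.07 ± 0.66, adjusted p = 0.000871), and Relb (-1.30 ± 0.22, adjusted p = 0.000976) were among the lower.

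Proteases that trim chemokines were 12, of which 9 were tested. On sorting 2 were called lower and 7 were not called, against 6.06% of all tested genes called lower. The lower ones were Mmp9 and Mmp12, the macrophage elastase. On depletion 1 was called higher, Dpp4, which cuts the amino terminus of several chemokines, and 1 lower, Mmp12. Of all tested genes, 17.4% were called higher and 19.9% lower on depletion, so on depletion the proteases were not called more often than other genes. Dpp4 had 75, 386 and 2116 counts in BAC depleted, against 36, 42 and 55 in BAC nondepleted, without overlap but with a wide spread (4.43 ± 1.08, edgeR adjusted p = 0.00978). In BM sorted Dpp4 had 2 counts in all, and it was lower than in BAC depleted by a ratio of 1474 (95% counting interval 408 to 12180, edgeR adjusted p = 0.000697). Mmp13 (3.62 ± 0.66, edgeR adjusted p = 0.00160) and Mmp14 (1.35 ± 0.20, adjusted p = 0.000541), both made by bone-forming stroma, were higher in BM sorted than in BAC depleted.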

How the data were processed

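RNA of 12 libraries was measured by sequencing from 50 ng of total RNA with a low-input kit, per the labels' protocols. The authors deposited raw read counts per gene. STAR 2.7.9a, featureCounts (Subread 2.0.1), MultiQC 1.7 and the build GRCm39 are named, per the submitters' processing notes. Annotation release and strand setting were not given in the sources used here. Overlapping genes are therefore uncertain.

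The analysis of the counts used R 4.3.3 and edgeR 4.0.16. Libraries were TMM-scaled, filterByExpr left 15698 of 53819 genes, and all libraries entered 1 fit with group means (common dispersion 0.0969, 8 residual degrees of freedom). Contrasts used the robust quasi-likelihood F test with Benjamini-Hochberg adjustment over all tested genes at 0.05. Each approximate SE is the absolute log2 fold change over the root of F. CPM used TMM-scaled library sizes, and SD is over 3 libraries. For a group with 0 counts the ratio is a bound against 3 counts over the group. With 1 to 3 counts it has a 95% counting interval (exact binomial). Both cover counting error only. The script was tested on simulated data.

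Members were described with counts in every library where their mean reached 5 CPM in a group, and otherwise by range. 1 member is not reported here by name. Up to 2 rising and 2 falling genes of each other list were named by smallest p. A share after purification was computed where the unpurified group averaged 1 CPM or more, and groups of under 10% and at least 50% were named. The members and lists were chosen with earlier results of these data known. The alternatives tried were leaving out each library, a replicate block, fitting only the groups compared, dropping the low-count filter, the Wald test of DESeq2 1.42.0, its size factors, and upper quartile scaling. The 1442 entries without a symbol stayed in, at 0.0130% to 0.0297% of the counts of a library. Libraries are numbered 1 to 3 within groups, and nothing says that these are separate animals or cultures.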

Additional observations from a re-analysis of the deposited data

Results flagged for a closer look

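For 5 members the effect of sorting in marrow and that of depletion in bone differed by the test of the difference itself (sorting effect minus depletion effect, log2, edgeR's quasi-likelihood test). Cxcr4 differed by 8.40 (adjusted p = 0.00336), with 45 counts over BM sorted and 0 over BAC depleted. Ccrl2 differed by 4.77 (edgeR adjusted p = 0.0224), with the smaller fall in marrow, where its own difference was not called. Ccl7 differed by 4.29 (edgeR adjusted p = 0.00428) and Ccl2 by 2.62 (adjusted p = 0.0334), both with the smaller fall in marrow. Ccl2 and Ccrl2 were not called between the purified groups and were lower in BM nonsorted than in BAC nondepleted. Ccl7 and Cxcr4 were also lower in BM nonsorted than in BAC nondepleted, and were higher in BM sorted than in BAC depleted. Ccl6 differed by -6.07 (edgeR adjusted p = 0.00929), with the smaller fall in bone. Without BAC depleted 1, the library with Xist counts, the difference of Ccl7 was 3.90, that of Ccl2 2.28 and that of Ccl6 -6.55.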

How the results depend on the processing

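Under DESeq2 size factors and upper quartile scaling the calls of members in the 5 contrasts were the same, except that Cxcl14 was added between the unpurified groups with upper quartile scaling, which moved the median of all genes on depletion to 0.13 from 0.05. No called fold change reversed, while that of Ackr4 on depletion, not called, changed sign without BAC depleted 1 (2.04 with it and -3.07 without it). The DESeq2 Wald test called 1 member higher on sorting and 8 higher for the difference of the effects. On depletion the 1 higher call was 0 without the low-count filter and 0 with only the groups compared. The 6 lower calls between the purified groups were 3 with only the groups compared. Leaving out 1 library gave 0 to 2 higher calls on depletion, 3 to 6 lower calls between the purified groups, 2 to 4 higher and 10 to 18 lower calls between the unpurified groups, and 2 to 8 higher calls for the difference of the effects, and the cause was not tested beyond the smaller number of libraries. Deviations from the group mean correlated by -0.223 to 0.237 between same-numbered libraries. With 3 libraries a group this cannot show whether the numbers pair them. With the number as a replicate block the lower calls between the purified groups were 3, Ccl27a, Cxcl1, Cx3cl1 and Cxcr6 were no longer called there, Cxcr6 (adjusted p = 0.0787) and Ccr1 were no longer called between the unpurified groups, and Cxcr4 on sorting (adjusted p = 0.0933) and Ccl2 in the difference of the effects (adjusted p = 0.0580) lost their calls. Depth limits genes with under about 10 counts, of which 22 members had no more than 7 in any library.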
